A study of Mus musculus with 4 samples.

Results

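Of the 5670 cell barcodes deposited for 4 mouse medulloblastomas, 1050 (18.5%) had fewer than 500 detected genes, a gene being detected with at least 1 UMI (unique molecular identifier, a tag that marks each captured transcript once). These low-gene barcodes were chosen by that count alone, in each mouse's table, and were compared with the other 4620 barcodes of the same tables. They have no cell type by their rule, and the label describes their number of detected genes only. All 4 animals were Atoh1-cre:SmoM2 littermates at postnatal day 20, so each tumour carried the same driver and there was no untreated or tumour-free group. In this strain the cre under Atoh1 switches on SmoM2, a Smoothened that is always active, in the precursors of cerebellar granule neurons, and a tumour of the Sonic hedgehog (SHH) subgroup forms. Cells were released with Accutase, red cells were lysed with ACK buffer, dead cells were sorted out with the dye 7-AAD, and each mouse gave 1 library of 10x Chromium 3' counts, that of mouse 1 having been sequenced at 2 time points. The viability sort and the red cell lysis bear on which cells could be found. The series' design text gives 4749 cells after quality filtering, with no limits named, against the 5670 barcodes in the tables and the 4620 that a minimum of 500 genes leaves.

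Granule neuron precursors divide under SHH, signal through Smoothened to Gli factors, and express Atoh1, Ptch1 and D-type cyclins. As they leave the cycle they turn on neuronal genes such as Neurod1, Cntn2 and Stmn2. The share of transcripts made inside the mitochondrion, and the level of Malat1, a long noncoding RNA held in the nucleus, are commonly read beside the number of detected genes, because cytoplasmic, mitochondrial and nuclear RNA need not be kept to the same degree when a cell is handled.

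Mouse 3 gave 532 low-gene barcodes of 1268, mouse 1 gave 339 of 1779, mouse 2 gave 155 of 1173, and mouse 4 gave 24 of 1450. As shares of the barcodes in each table these were 42.0%, 19.1%, 13.2% and 1.66%. The smallest UMI total in a table was 380 for mouse 3, 579 for mouse 1, 640 for mouse 2 and 782 for mouse 4, so the order of the shares was the reverse of the order of these minimums. Between 782 and 930 UMIs, the range from the highest of those minimums to the largest UMI total of a low-gene barcode, the low-gene share was 5.48% in mouse 1 (8 of 146 barcodes, exact 95% binomial interval 2.40 to 10.5), 6.50% in mouse 2 (8 of 123, 2.85 to 12.4), 2% in mouse 3 (1 of 50, 0.0506 to 10.6) and 9.76% in mouse 4 (24 of 246, 6.35 to 14.2). The 4 intervals overlap within that range. Such intervals cover counting error only.

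**Figure D1:**
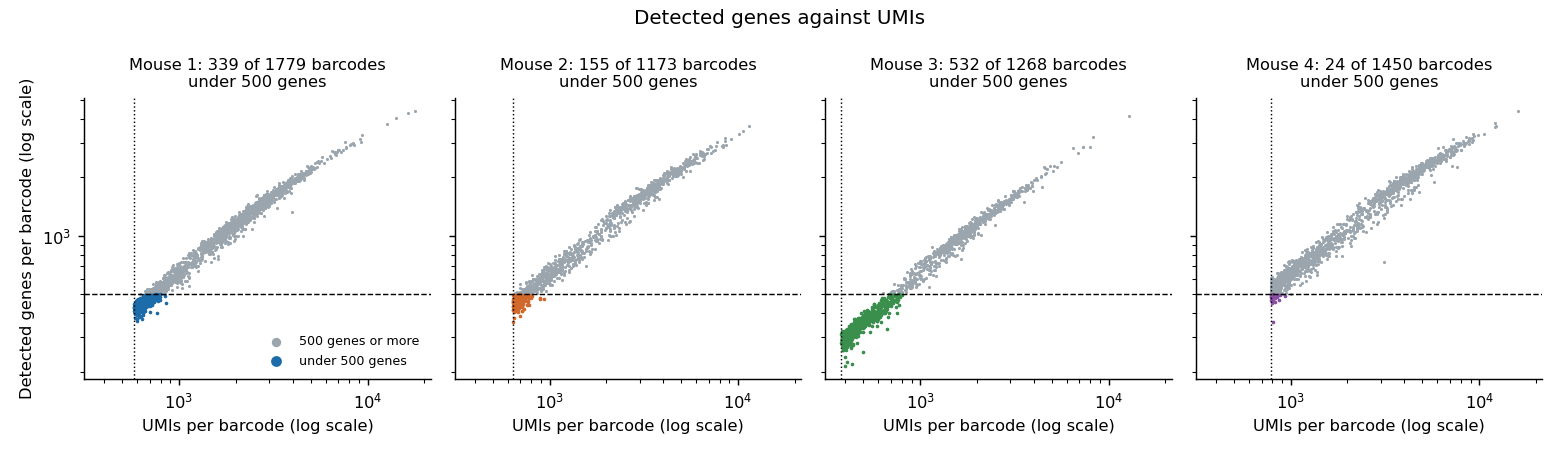
Detected genes per barcode against UMIs per barcode, both on log scales, 1 panel per mouse; each point is a barcode, coloured points lie under the dashed line at 500 genes, and the dotted line marks the smallest UMI total in that mouse's table. The coloured points fill the space between the dotted line and the dashed line, which is widest in mouse 3 (532 barcodes) and narrowest in mouse 4 (24 barcodes).

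Median UMIs per low-gene barcode were 644, 684, 491.5 and 805 in mice 1 to 4, against 2020, 2015.5, 1683 and 1788.5 in the other barcodes. The class is largely one of low depth: as many barcodes per table taken by lowest UMI total shared 954 of the 1050 (90.9%). With each barcode cut at random to 380 UMIs, median detected genes were 292, 283, 284 and 266.5 against 307, 304.5, 308 and 301. Low-gene barcodes held 221292, 107825, 272892 and 19633 UMIs in all, which is 6.48%, 4.19%, 16.3% and 0.516% of the UMIs of each table. In mouse 4 a single UMI was therefore worth 0.509 UMIs per 10000, and its low-gene values are coarse. Among the low-gene barcodes, 9 had a sequence also present in another mouse's table (0.857%, against 0.671% of the other barcodes), and no 2 barcodes of a table differed by 1 base. No doublet caller was run. The rule is a cut through a continuous range: the 354 barcodes with 450 to under 500 genes had 8.12% of their UMIs on mitochondrial-encoded genes and 21.7 astroglial marker UMIs per 10000, and the 341 with 500 to under 550 had 8.42% and 30.9. Malat1 stood at 157 UMIs per 10000 in the former and 209 in the latter.

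Mitochondrial-encoded transcripts took a larger share of UMIs in the low-gene barcodes of every mouse. Their share of summed UMIs was 7.58%, 9.61%, 8.69% and 12.2% in mice 1 to 4, against 3.34%, 3.93%, 3.76% and 4.29% in the other barcodes of the same mice. The ranges did not overlap. The mean was 9.53% ± 1.98 (SD, n = 4 mice) against 3.83% ± 0.395, a difference of 5.70 ± 1.60 percentage points, with the low-gene barcodes higher in 4 of 4 mice. An exact sign-flip permutation of these differences, two-sided, gave p = 0.125, the smallest value that 4 mice allow. More than 10% of UMIs was mitochondrial in 381 low-gene barcodes (36.3%) and in 483 others (10.5%). The difference was 3.20 points when the reference was the 2089 barcodes with 500 to under 1000 genes.

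Summed UMIs per mouse and class were next compared gene by gene with edgeR, paired within the mouse. Of 7423 genes tested, 178 passed a Benjamini-Hochberg adjusted p of 0.05 (2.4% of genes tested), 125 of them higher in the low-gene barcodes (1.68%) and 53 lower (0.714%). This contrast is the one that chose the barcodes, and a barcode whose UMIs are concentrated on a few genes has fewer detected genes, so the counts describe the class. Each gene can move a barcode's own count of detected genes by at most 1. When barcodes were split by the detected genes of alternate rows of the tables and the genes of the remaining rows were tested, 174 genes passed (2.34% of those tested) and 152 of the 178 were among them. These splits took 993 and 1000 of the same 1050 low-gene barcodes, so similar calls had to follow and are no independent support. Values per mouse are given as UMIs per 10000, and each log2 fold change carries a standard error (SE) worked back from the test. Called or not, 776 of the 7423 genes tested (10.5%) had no overlap between the values of the classes. Without mouse 3, which holds 532 of the 1050 low-gene barcodes, 42 genes passed (0.478%), without mouse 1 96 (1.29%), without mouse 2 83 (1.11%) and without mouse 4 210 (2.77%). DESeq2 called 61 genes (0.822%), all of them among the 178, and edgeR without the pairing by mouse called 32 (0.431%). Passing shares were 1.32% when the lowest UMI totals replaced the lowest gene counts, 0.184% for barcodes under 400 genes, and 5.51% (92 of 1669 genes) for barcodes in a UMI range that both classes of a mouse hold, here called the shared UMI range.

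**Figure D2:**
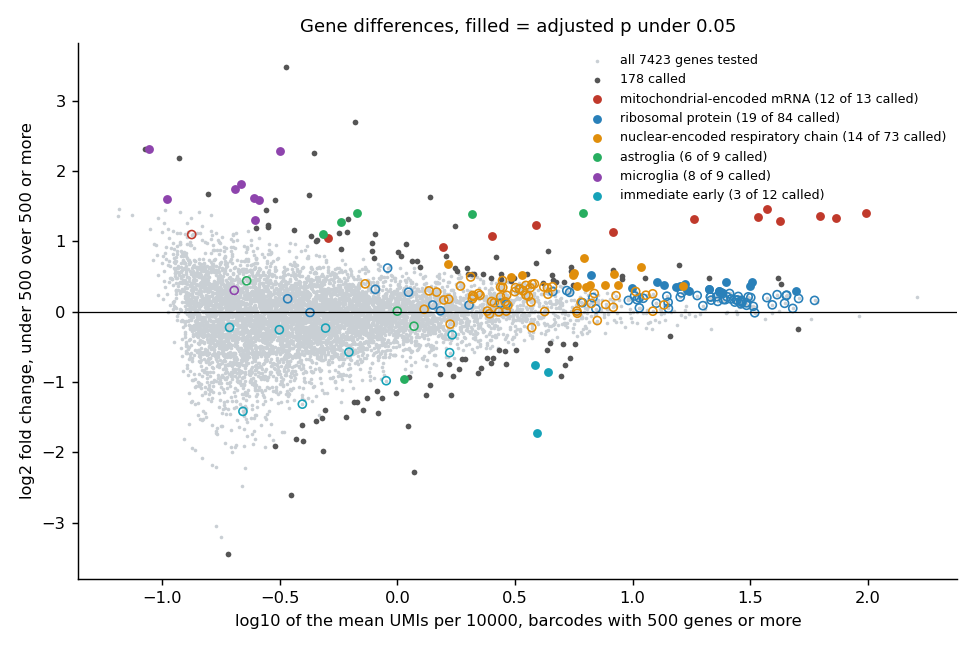
Log2 fold change of low-gene over other barcodes against the log10 mean level (UMIs per 10000) in the other barcodes, for 7423 genes; coloured symbols mark 6 gene lists, filled where the adjusted p is under 0.05 and open where it is not. Mitochondrial-encoded genes stand near 1.3 across their whole range of levels, ribosomal genes near 0.2, and the microglial and astroglial calls lie at low levels.

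Mitochondrial-encoded mRNAs moved together. Of 13 tested, 12 were higher in low-gene barcodes and none was lower, with a median log2 fold change of 1.29 against -0.03 over all genes tested. In the held-out split, which took nearly the same barcodes, 12 of 13 also passed. The genes encode subunits of respiratory complexes I, III and IV and of ATP synthase. mt-Nd1 (complex I, chrM:2751-3707 on mm10, plus strand) was counted at 88.9, 96.4, 80.8 and 135 UMIs per 10000 in the low-gene barcodes of mice 1 to 4 and at 35.7, 38.8, 32.8 and 42.4 in the others, a log2 fold change of 1.46 ± 0.07 (SE; adjusted p = 1.2e-85). Every low-gene value lay above every other value. mt-Co1 (complex IV, chrM:5328-6872) was counted at 105, 133, 157 and 243 against 46.5, 56.6, 70.4 and 77.1, which is 1.36 ± 0.07. mt-Atp6 (ATP synthase) stood at 1.40 ± 0.07 and mt-Cytb (complex III) at 1.35 ± 0.07, again with no overlap between the classes. The gene that did not pass was mt-Nd6, with 16 UMIs in the low-gene barcodes and a log2 fold change of 1.10 ± 0.49 (adjusted p = 0.333). In the shared UMI range 4 of 12 passed with a median of 0.31, and under 400 genes none of 13 passed with a median of 0.82, where the median over all genes was -0.32. With barcodes over 10% mitochondrial UMIs removed from both classes, the median over the 12 genes then tested was 0.57 and 7 passed, where 1.62% of all genes did. With barcodes that carry the marker list of a cell type outside the granule lineage left out of both classes, 12 of 13 passed. Of 48 named called genes tested in that setting 44 kept their call, and the share over all genes is not given here.

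Some nuclear genes for the same respiratory complexes and some ribosomal protein genes were also higher, by less in the comparison of all barcodes. Of 73 nuclear respiratory genes 14 were higher and none lower, with a median log2 fold change of 0.26. Cox6a1, a complex IV subunit, was counted at 9.35, 9.92, 8.90 and 10.2 in low-gene barcodes and at 5.89, 6.68, 5.74 and 6.66 in the others (0.76 ± 0.10, adjusted p = 1.75e-11), with no overlap. Cox6c stood at 0.64 ± 0.09 and Uqcr11, of complex III, at 0.56 ± 0.11. Of 84 ribosomal protein genes 19 were higher and none lower, with a median of 0.20, and the summed list was higher in 3 of 4 mice only. Rps26 and Rps29, of the small subunit, stood at 0.52 ± 0.10 and 0.42 ± 0.08, and Rpl37a, of the large subunit, at 0.42 ± 0.08. Ribosomal protein genes have near-identical processed copies, of which Rps26-ps1 (0.57) was called as well, so the split of reads among them is uncertain. These counts moved with the setting: of the ribosomal genes 1 of 84 passed without mouse 3, 32 without mouse 4, and none without the pairing, with the lowest UMI totals (median -0.03), under 400 genes (median -0.38) or against barcodes with 500 to under 1000 genes. In the shared UMI range 48 of 81 ribosomal genes passed with a median of 0.39, and 2 of 72 respiratory genes with 0.15. The classes overlap in UMI totals there, so the gene limit picks barcodes whose UMIs fall on fewer genes. These counts describe that choice and are no independent support.

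The 125 higher genes were short. The median of the longest annotated transcript was 1203 bases for the 121 of them with a length, against 3288 bases over all genes tested and 3904 for the 53 lower genes. Leaving out the mitochondrial-encoded genes gave 1260 bases. Counts come from the 3' end, and whether transcript length bears on the differences was not tested.

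Astroglial transcripts were more frequent in the low-gene barcodes of all 4 mice. The summed list of 13 markers stood at 19.7, 31.1, 22.8 and 51.4 UMIs per 10000 against 13.9, 12.3, 12.5 and 15.8, with no overlap. Without Apoe the sum was 11.7, 13.7, 6.56 and 21.4 against 7.80, 8.20, 5.33 and 8.48, higher in 4 of 4 mice although the ranges overlapped. Of 9 markers tested 5 were higher and 1 was lower. Apoe, a lipid carrier of astroglia that microglia also express (chr7:19696109-19699188, minus strand), was counted at 7.91, 17.3, 16.2 and 30.1 in low-gene barcodes and at 6.07, 4.12, 7.12 and 7.29 in the others (1.40 ± 0.09, adjusted p = 6.25e-48). The lowest low-gene value, in mouse 1, lay just above the highest of the others. The Apoe counts are not those of astroglia alone. In the microglia-like cluster of 25 low-gene barcodes described below, the astroglial list stood at 270.5 UMIs per 10000 with Apoe and 1.97 without it. Fabp7, the fatty acid binding protein of radial and Bergmann glia (chr10:57784881-57788450), was counted at 5.06, 5.66, 2.49 and 9.17 against 2.14, 2.30, 1.17 and 2.68 (1.39 ± 0.14, adjusted p = 2.11e-21), and was higher in each mouse although the ranges overlapped. S100b, a calcium-binding protein of glia, stood at 1.41 ± 0.24, Aldoc, the brain aldolase, at 1.27 ± 0.26, and Gfap, the astroglial intermediate filament, at 1.11 ± 0.28. Sox9, a transcription factor of glia and of neural progenitors, went the other way at -0.96 ± 0.29 (adjusted p = 0.0427), lower in 4 of 4 mice. Slc1a2, a glutamate transporter, was counted at 1.04, 0.927, 0.696 and 1.53 in the low-gene barcodes and was not called, nor was the water channel Aqp4 (0.44 ± 0.42, adjusted p = 0.805). With barcodes that carry the list of any cell type outside the granule lineage left out, 2 of 9 astroglial markers were higher and none lower. The astroglial list was among those used, so these markers helped choose the barcodes left out, and the count is no check on them.

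Other genes stood among the largest differences. Clu, the secreted chaperone clusterin (chr14:65968483-65981547), stood at 2.18 ± 0.46 (adjusted p = 0.000282) on 22 UMIs in 17 low-gene barcodes, and without mouse 4 it was 1.74 with an adjusted p of 0.0817. Mt1, a metallothionein that binds zinc and copper (chr8:94179082-94180327), was counted at 2.71, 4.08, 3.88 and 4.58 against 0.798, 1.09, 1.78 and 1.84 (1.63 ± 0.16, adjusted p = 2.72e-22), with no overlap. S100a1, another calcium-binding protein, stood at 1.59 ± 0.33, S100a11 at 1.68 ± 0.42 and Chchd10, a mitochondrial intermembrane protein, at 1.45 ± 0.32, each on 25 to 40 UMIs. The genes of this paragraph were named only if higher in 4 of 4 mice, so that direction is no finding.

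To count barcodes rather than transcripts at equal depth, each barcode was thinned to 380 UMIs and said to carry a list with at least 3 UMIs over at least 2 of its genes that made up at least 1% of its UMIs. The astroglial list was carried by 3.54%, 7.74%, 1.69% and 8.33% of low-gene barcodes in mice 1 to 4 and by 2.15%, 2.16%, 0.951% and 2.88% of the others. The difference was 3.29 ± 2.59 percentage points (SD, n = 4), higher in 4 of 4 mice (exact sign-flip p = 0.125, the smallest possible), and 1.81 points with Apoe left out of the list. Unthinned, 38 low-gene barcodes (3.62%) and 76 others (1.65%) carried it, the 38 being 10, 13, 12 and 3 in mice 1 to 4. With Apoe left out, 11 (1.05%) and 24 (0.519%) did, the 11 being 5, 5, 0 and 1. Against barcodes with 500 to under 1000 genes the thinned difference for the full list was 1.74 points and held in 2 of 4 mice.

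Microglial transcripts were higher in the low-gene barcodes of 3 mice and were not detected in the 24 low-gene barcodes of mouse 4. The summed list stood at 2.98, 5.38, 9.78 and 0 UMIs per 10000 against 2.28, 1.06, 2.05 and 2.48. Of 9 markers tested 8 were higher and none lower, with a median log2 fold change of 1.62. Tyrobp, the signalling adaptor of microglial receptors (chr7:30413760-30417585), was counted at 0.904, 1.39, 2.38 and 0 against 0.319, 0.276, 0.356 and 0.315 (2.29 ± 0.25, adjusted p = 1.49e-17), on 100 UMIs in 25 low-gene barcodes. Aif1, an actin-bundling protein of microglia, stood at 2.31 ± 0.46, C1qa, a subunit of complement C1q, at 1.81 ± 0.32, and Fcer1g, an Fc receptor adaptor, at 1.75 ± 0.33. C1qa was higher in 2 of 4 mice, and without mouse 3 it stood at 0.43 with an adjusted p of 1. Without mouse 3, and with DESeq2, 1 of 9 markers passed. Tmem119, a marker of resident microglia, had 0 UMIs in low-gene barcodes and P2ry12 had 1. At 380 UMIs the list was carried by 0.885%, 1.94%, 2.44% and 0% of low-gene barcodes and by 0.903%, 0.688%, 0.543% and 0.771% of the others, so 2 mice were higher and 2 lower.

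Other myeloid signal rested on few barcodes. Lyz2, the lysozyme of macrophages and neutrophils, stood at 1.07 ± 0.26 on 65 UMIs in 23 low-gene barcodes, and was the single member of the macrophage list with enough counts to be tested. The neutrophil alarmins S100a8 and S100a9 were both called, at 2.69 ± 0.29 and 3.48 ± 0.30. Of the 133 UMIs of these genes in low-gene barcodes, 78 came from a barcode of mouse 1 and 53 from a barcode of mouse 3. The low-gene barcodes of mice 2 and 4 held none, while in mouse 4 the other barcodes stood at 2.48 for S100a8. The pair of calls therefore describes 2 barcodes.

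Oligodendrocyte lineage markers did not separate the classes. The precursor list stood at 4.65, 2.97, 5.53 and 2.04 in low-gene barcodes and at 3.06, 5.50, 3.83 and 3.63 in the others, higher in 2 of 4 mice, and none of the 5 members tested passed. Olig1, a transcription factor of the lineage, was counted at 1.31, 1.58, 1.17 and 0.509 against 0.946, 1.80, 0.562 and 1.03 (0.56 ± 0.22, adjusted p = 0.211).

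Marker lists of vascular cells, red blood cells, platelets and lymphocytes were at or near 0 in the low-gene barcodes. Cldn5 (a tight-junction protein of endothelium), Rgs5 (a pericyte marker), Hbb-bs and Hba-a1 (globin genes) each had 0 UMIs there, with 1, 8, 1 and 0 UMIs in all other barcodes together. Of 10 endothelial genes 8 were at 0 in the low-gene barcodes, of 14 mural or fibroblast genes 9, and of 9 erythroid genes 8. All 27 erythroid-list UMIs were Bpgm, which other cells express. None of the 1050 barcodes carried the endothelial, mural, erythroid, platelet or lymphocyte list at full depth, and none of the 4620 others did. By counting error only, 0 of 1050 allows a share of up to 0.286% of barcodes that carry a list by the rule of 3 UMIs, pooled over mice of which mouse 3 gave 532, which is no limit on the share of cells of these types. Summed levels were 0.153 ± 0.133 against 0.135 ± 0.0166 UMIs per 10000 for the endothelial list, 0.370 ± 0.101 against 0.396 ± 0.123 for the mural list and 0.413 ± 0.163 against 0.433 ± 0.0471 for the erythroid list (SD, n = 4), each higher in 2 of 4 mice. The choroid plexus list, led by Ttr and Enpp2, stood at 0.309 ± 0.203 against 3.27 ± 4.75, and the ependymal list at 0 against 0.0252 ± 0.0178. Platelet genes had 4 UMIs and lymphocyte genes 5.

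**Figure D3:**
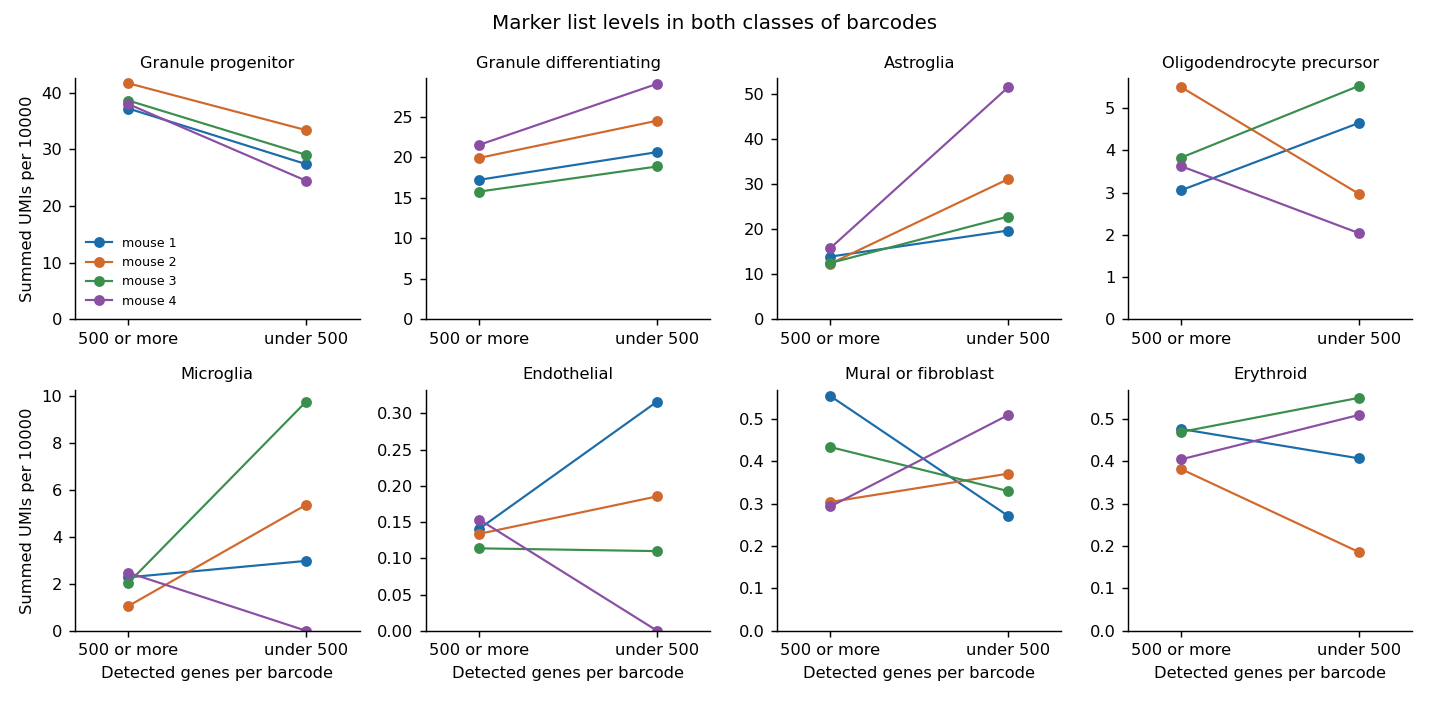
Summed UMIs per 10000 of 8 marker lists in barcodes with 500 or more genes and with fewer than 500, 1 line per mouse, on linear axes that start at 0 and differ between panels. Granule progenitor markers fall and astroglial markers rise in all 4 mice, microglial markers rise in 3 mice and reach 0 in mouse 4, and endothelial, mural and erythroid lists stay under 0.6 in both classes.

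Markers of the granule lineage were present in the low-gene barcodes of every mouse. The progenitor list stood at 27.4, 33.4, 29.0 and 24.4 UMIs per 10000, below the 37.2, 41.7, 38.6 and 38.0 of the other barcodes in each mouse and with no overlap. Of its 12 members tested 2 were lower. Ptch1, the SHH receptor and a target of the pathway, was counted at 2.08, 0.742, 1.5 and 1.53 against 3.10, 2.13, 2.68 and 2.25 (-0.65 ± 0.17, adjusted p = 0.0111), and the cyclin Ccnd1, also a target, stood at -0.46 ± 0.13 (adjusted p = 0.0237). Both are also the 2 of 14 SHH pathway genes that passed, and the summed pathway list was 21.0 ± 2.61 against 29.1 ± 2.41, lower in 4 of 4 mice. No member of either list passed when mouse 1, mouse 2 or mouse 3 was left out, with DESeq2, without the pairing, or against barcodes with 500 to under 1000 genes, while both genes passed without mouse 4. Atoh1, the factor whose promoter drives the cre, was counted at 1.22, 1.58, 1.39 and 1.53 against 1.82, 1.76, 1.52 and 1.37 and was not called (-0.13 ± 0.20, adjusted p = 0.902).

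The differentiating list went the other way, at 20.6, 24.5, 18.8 and 29.0 against 17.2, 19.9, 15.7 and 21.5, higher in each mouse although the ranges overlapped. Stmn2, a microtubule regulator of growing axons, was the 1 of 10 members that passed, at 6.37, 9.0, 5.06 and 9.17 against 4.14, 5.06, 2.97 and 5.26 (0.86 ± 0.11, adjusted p = 7.26e-12). Neurod1 stood at 0.49 ± 0.19 (adjusted p = 0.203) and the axonal adhesion protein Cntn2 at 0.66 ± 0.41 (adjusted p = 0.621). Among 21 axon and microtubule genes 4 were higher (Stmn2, Stmn4, Tubb2b and Tuba1a) and Marcks, a membrane-bound actin regulator, was lower (-0.76 ± 0.14). None of 3 mature granule genes and none of 13 synapse genes passed. Markers of other cerebellar neurons were scarce, at 0.633 ± 0.120 against 0.460 ± 0.105 UMIs per 10000 (SD, n = 4).

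Summed cell cycle levels were lower in the low-gene barcodes, while few single genes passed. The G2M list stood at 69.9 ± 8.64 UMIs per 10000 against 95.2 ± 10.6 and the S phase list at 34.0 ± 11.4 against 45.6 ± 1.38 (SD, n = 4), both lower in 4 of 4 mice with no overlap. In mouse 1 G2M was 81.7 against 83.3 and S phase 43.2 against 45.7. Mouse 4, with 24 low-gene barcodes, had the lowest S phase level, 17.3. Over all mice the G2M list stood at 76.9 from 400 to under 500 genes and 75.0 from 800 to under 1000. It stood at 67.9 from 1000 to under 1500 and at 141 with 2000 or more. The S phase list stood at 39.6, 37.5, 39.0 and 53.8 in the same 4 bins. None of 41 S phase genes passed, and 2 of 49 G2M genes were lower: Cenpa, the centromeric histone (-0.55 ± 0.16), and Cks2, a cyclin-dependent kinase subunit (-0.54 ± 0.14). No G2M gene passed without mouse 3, without mouse 4, with DESeq2 or without the pairing, and 4 passed without mouse 1. Mki67 (-0.40 ± 0.18, adjusted p = 0.371) and Top2a (0.18 ± 0.13, adjusted p = 0.718) were not called.

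Immediate early genes, which neurons and dissociated cells induce within minutes, were lower. The list stood at 11.2, 9.74, 7.81 and 2.55 against 20.5, 22.2, 13.6 and 19.5, lower in each mouse with no overlap. Of 12 genes tested 3 were lower and none higher, with a median log2 fold change of -0.67. Egr1, a zinc finger factor, was counted at 1.36, 0.649, 0.879 and 0.509 against 4.47, 3.87, 2.71 and 4.69 (-1.73 ± 0.19, adjusted p = 6.15e-18), and every low-gene value lay below every other value. None of 4 genes tested in the shared UMI range passed, and none of 8 against barcodes with 500 to under 1000 genes. Ier2 stood at -0.85 ± 0.15 and Jun, of the AP-1 factor, at -0.76 ± 0.16. The heat shock co-chaperone Dnajb1 was also lower (-1.23 ± 0.32, adjusted p = 0.0101), as 1 of 9 heat shock genes. None of 9 integrated stress response genes and none of 11 p53 and apoptosis genes passed.

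Histone and chromatin genes gave 4 lower calls of 17 tested and none higher, against 1 of 17 without mouse 3 or with DESeq2. In the shared UMI range none of 13 passed and their median log2 fold change was 0.14. Hist1h1b, a linker histone of dividing cells (chr13:21779883-21780625, minus strand), was counted at 0.136, 0.278, 0.257 and 0.509 against 1.3, 1.03, 1.25 and 1.14 (-2.29 ± 0.35, adjusted p = 1.23e-08), on 14 UMIs in 12 low-gene barcodes. Hist1h1e stood at -1.44 ± 0.35, and H2afz, a variant histone, at -0.25 ± 0.08. For Hist1h2ap, with 3 UMIs against 393, the ratio of the summed rates was 0.133 (exact 95% interval 0.0274 to 0.392, counting error only). Replication-dependent histone mRNAs end without a poly(A) tail and belong to families of near-identical genes, which makes their counts in a poly(A) library uncertain, and Hist1h2al, also lower (-1.63 ± 0.32), is annotated as a processed pseudogene.

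The remaining largest decreases were of genes with few UMIs: Tab2, an adaptor of inflammatory kinase signalling (-1.99 ± 0.50, on 7 UMIs), Mcfd2, a cargo receptor of the secretory pathway (-1.85 ± 0.53, 6), Senp1, a SUMO protease (-1.82 ± 0.53, 6), Tex9 (-1.61 ± 0.48, 8), Rap2b, a small GTPase (-1.55 ± 0.46, 9), Rasa1, a Ras GTPase activating protein (-1.52 ± 0.45, 10), and Prox1, a homeobox factor (-1.50 ± 0.40, 13). The rule for naming took only genes lower in 4 of 4 mice, so that direction is no finding. Each had 0 UMIs in the low-gene barcodes of mouse 4, where 1 UMI is 0.509 UMIs per 10000. For all but Prox1 the other barcodes of mouse 4 stood at 0.341 to 0.476, so only 0 UMIs could be lower there. Of 28 splicing and RNA-binding genes, Hnrnpab was lower (-0.91 ± 0.14) while Son (0.58 ± 0.11) and Hnrnpm (0.41 ± 0.12) were higher. Aldoc was the 1 of 15 glycolysis genes that passed, and none of 20 translation factor genes did.

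Apart from Malat1, the levels given here changed gradually with the number of detected genes, with no step at 500 in the pooled bins. Malat1 rose there, from 173 UMIs per 10000 at 400 to under 500 genes to 222 at 500 to under 600. Mitochondrial-encoded mRNA stood at 1425 UMIs per 10000 in the 78 barcodes under 300 genes, all from mouse 3, and over all mice at 845 from 300 to under 400 genes, 819 from 400 to under 500, 817 from 500 to under 600, 688 from 600 to under 800, 523 from 800 to under 1000 and 342 from 1000 to under 1500. Immediate early genes stood at 9.56 from 400 to under 500 genes, 10.3 from 500 to under 600, 17.3 from 800 to under 1000 and 20.6 from 1000 to under 1500. Progenitor markers stood at 29.2 from 400 to under 500 and again at 29.2 from 500 to under 600, and at 38.4 from 1000 to under 1500. Astroglial markers stood at 24.1 from 400 to under 500, 27.1 from 500 to under 600, 24.1 from 600 to under 800 and 11.9 from 1000 to under 1500. The mix of mice differs between bins, and across 500 genes the astroglial level moved differently in the mice: mouse 4 went from 43.5 to 24.1 UMIs per 10000 (23 and 213 barcodes), mouse 1 from 20 to 36.5 (325 and 195), mouse 2 from 30.6 to 23.3 (152 and 188), and mouse 3 from 22 to 21 (138 and 70).

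Against the 2089 barcodes with 500 to under 1000 genes, 16 genes passed (0.341% of 4694 tested), 15 higher (0.32%) and 1 lower (0.0213%), and all 16 were among the 178. Mitochondrial-encoded genes made up 10 of the 15, with log2 fold changes near those of mt-Co1 (0.67 ± 0.09, adjusted p = 4.93e-10) and mt-Co3 (0.57 ± 0.09), each higher in 4 of 4 mice. The others were Mt1 (0.63 ± 0.15), Cox6a1 (0.45 ± 0.11), Myeov2 (0.54 ± 0.14), S100a9 in its few barcodes, and Gm26917, a gene with a provisional name (1.68 ± 0.25, on 124 UMIs, higher in 3 of 4 mice). Rap2b was the lower gene. Apoe stood at 0.29 (adjusted p = 0.44), Fabp7 at 0.40 (adjusted p = 0.42) and Egr1 at -0.85 (adjusted p = 0.065) against this reference. Of these genes, those outside the rule for naming were listed after their values were seen.

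**Figure D4:**
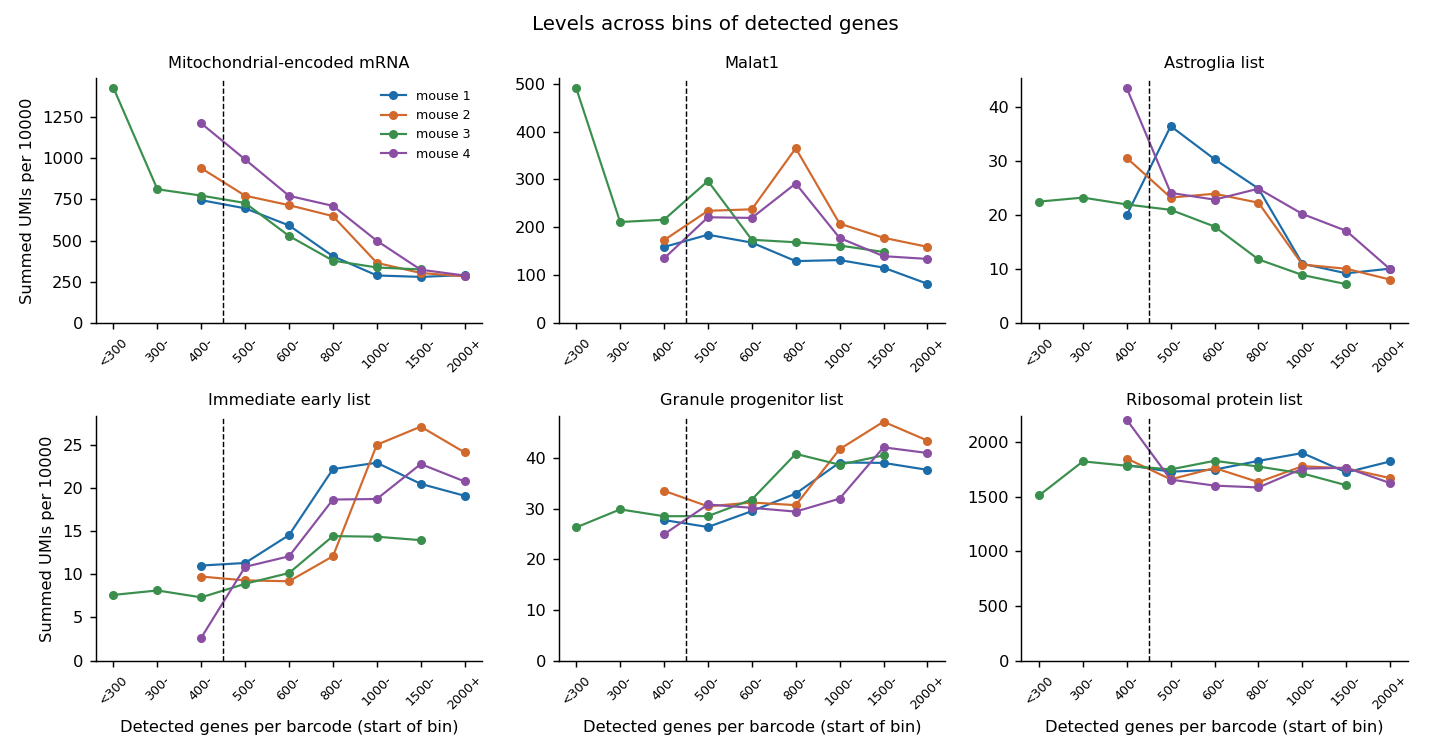
Summed UMIs per 10000 in bins of detected genes, 1 line per mouse, for mitochondrial-encoded mRNA, Malat1, 3 marker or response lists and ribosomal protein genes; the dashed line marks 500 genes, bins with fewer than 20 barcodes are not drawn, and axes start at 0. Mitochondrial-encoded mRNA declines in each mouse up to about 1500 genes, and the immediate early and granule progenitor lists are lower on the left of each panel.

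Malat1 (chr19:5795690-5802672, minus strand) was missing from more of the low-gene barcodes, while its summed level was not called. That level was 157, 171, 245 and 129 UMIs per 10000 against 125, 197, 166 and 163, higher in 2 of 4 mice (0.21 ± 0.07, adjusted p = 0.102). Thinned to 380 UMIs per barcode, 34.2%, 42.6%, 33.3% and 54.2% of low-gene barcodes had no Malat1 UMI, against 16%, 21.4%, 8.97% and 20.8% of the others. The difference was 24.3 ± 6.54 percentage points (SD, n = 4), in the same direction in 4 of 4 mice (exact sign-flip p = 0.125, the smallest possible). Unthinned shares were 31.0% ± 4.93 and 8.39% ± 2.69, and against barcodes with 500 to under 1000 genes the thinned difference was 12 points. Meg3, another noncoding RNA, stood at 1.19 ± 0.36 (adjusted p = 0.0437) on 29 UMIs, higher in 2 of 4 mice.

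The low-gene barcodes were then clustered alone, with mitochondrial-encoded and ribosomal protein genes left out, and a cluster was named like a cell type only with at least 3 of its markers detected in at least 10% of its barcodes and at least 1 log2 unit above the other low-gene barcodes. Clusters were formed on the genes described here, so what follows has no test. Of 7 clusters 3 could be named. An astroglia-like cluster of 94 barcodes (8.95%) rested on Aldoc, Gfap, Fabp7, S100b and Apoe, with Sparc, Mt3 and Clu also among its leading genes. It held 33, 27, 24 and 10 barcodes of mice 1 to 4, which is 9.73%, 17.4%, 4.51% and 41.7% of each mouse's low-gene barcodes. An oligodendrocyte precursor-like cluster of 31 (2.95%) rested on 6 markers, Pdgfra, Ptprz1 and Lhfpl3 among them, and held 10, 1, 20 and 0. A microglia-like cluster of 25 (2.38%) rested on 11 markers, was led by Tyrobp and the C1q genes, held 5, 3, 17 and 0, and included the 2 barcodes rich in S100a8 and S100a9, with S100a8 among its leading genes. Granule lineage markers were also counted in the astroglia-like cluster, at 26.7 UMIs per 10000 for the progenitor and 25.1 for the differentiating list, near the 26.0 and 28.7 of the unnamed cluster 2, against 6.52 and 8.15 in the precursor-like and 9.17 and 3.28 in the microglia-like cluster. The astroglial list stood at 94.96 in the astroglia-like cluster (48.8 without Apoe) and at 270.5 in the microglia-like cluster (1.97 without Apoe). The 3 clusters differed in both organelle measures: mitochondrial-encoded UMIs had a median of 6.25% in the astroglia-like, 10.7% in the precursor-like and 2.35% in the microglia-like cluster, and Malat1 stood at 38.6, 1230 and 60.3 UMIs per 10000.

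The other 4 clusters, 900 barcodes with too few markers for a name, fell into 2 kinds by Malat1. Malat1 stood at 374 and 436 UMIs per 10000 in clusters 1 and 4 and at 22.8 and 21.0 in clusters 2 and 3, and a limit of 100, set after seeing these levels, separates them. The 409 Malat1-rich barcodes (39.0% of the low-gene barcodes) had 12.3% of their UMIs on mitochondrial-encoded genes, and 280 of them (68.5%) lay over 10%. The 491 Malat1-poor barcodes (46.8%) had 5.77%, and 53 of them (10.8%) lay over 10%. Within mice 1, 2 and 3 the mitochondrial shares were 11%, 14.2% and 12.4% in the Malat1-rich and 5.03%, 6.06% and 5.97% in the Malat1-poor kind. Mouse 4 had 5 and 9 such barcodes.

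**Figure D5:**
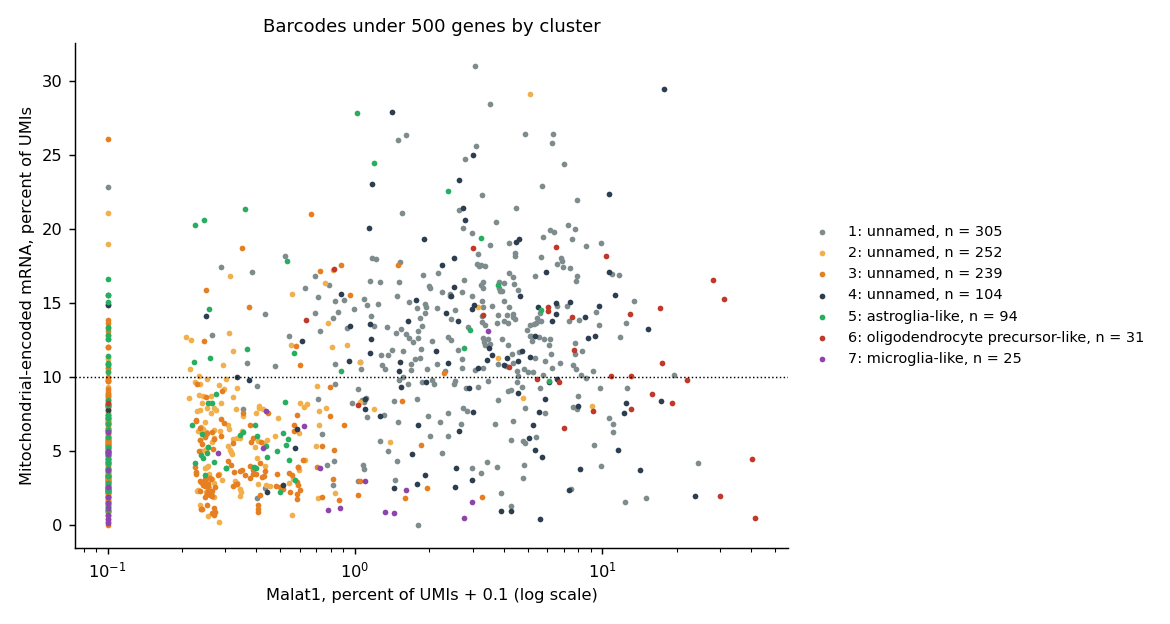
Mitochondrial-encoded UMIs (percent of UMIs) against Malat1 (percent of UMIs plus 0.1, log scale) for the 1050 low-gene barcodes, coloured by cluster; the dotted line marks 10% mitochondrial and points at the left edge have no Malat1 UMI. Clusters 1 and 4 lie to the right with most barcodes over 10%, clusters 2 and 3 lie to the left with most under it, and the precursor-like cluster reaches the highest Malat1.

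The Malat1-poor kind held the higher levels of ribosomal, respiratory and chromatin transcripts. Ribosomal protein genes stood at 2291 UMIs per 10000 in the Malat1-poor and 1225 in the Malat1-rich barcodes, nuclear respiratory genes at 433 and 289, translation factors at 283 and 181, and chromatin-bound high mobility group and histone genes at 242 and 147. The Malat1-rich kind held more of the response and signalling genes, with immediate early genes at 14.8 against 3.97, the SHH pathway list at 26.5 against 18.7 and progenitor markers at 36.2 against 26.3. Differentiating markers were lower there, at 17.3 against 24.3. Cluster 3, of the Malat1-poor kind, was led by mitotic genes (Cdca8, Cks2, Cenpa and Cdc20) and had a median of 3.76% mitochondrial UMIs. Cell cycle transcripts were not limited to it: the G2M list stood at 98.2 there and at 90.6 in cluster 1, of the Malat1-rich kind, whose leading genes include Mki67 and Dtl, and the S phase list at 41.5 and 51.6. By kind, the G2M list stood at 80.5 in the Malat1-rich and 72.2 in the Malat1-poor barcodes and the S phase list at 48.9 and 36.5. Both kinds were near 0 for microglial genes (0.172 and 0.136) and for endothelial genes (0.172 and 0.204), and held 10.4 and 6.31 astroglial UMIs per 10000. Median UMI totals were 594 in the Malat1-rich and 617 in the Malat1-poor kind. Whether cell state, RNA loss or capture goes with either kind was not tested.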

How the data were processed

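Per the labels' protocols, single-cell suspensions of 4 tumours were captured with the 10x Chromium 3' kit and sequenced on a NextSeq 500. The submitters' processing notes name Cell Ranger 2.0.2, Seurat and mm10; the annotation release and any barcode filters are not given in the sources used here. The authors deposited raw UMI counts, whole numbers not normalised, with 27998 genes as rows and barcodes as columns, in 1 table per mouse. All 5670 barcodes were used. Tables held 3415171, 2573901, 1679285 and 3801197 UMIs for mice 1 to 4.

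The counts of low-gene and of other barcodes were added up in each mouse, and edgeR 4.0.16 in R 4.3.3 compared the sums (quasi-likelihood, TMM, filterByExpr, Benjamini-Hochberg threshold 0.05). The mouse was a term in the fit because its sums share an animal and a library; the correlations of their deviations were 0.168, 0.114, 0.314 and 0.0694. The SE is the size of the log2 fold change divided by the root of F, not a spread over mice. DESeq2 1.42.0, other gene limits, splits, references and filters were alternatives, and the fit was tested on simulated data. Among 200 genes changed there, 41.2% of those changed by 1 log2 unit were called and 77.9% of those changed by 2. A gene not called may therefore still differ. Clustering used scanpy 1.11.5 (2000 variable genes, 20 components, 15 neighbours, Leiden resolution 1). Gene positions and lengths are from GENCODE M21 on mm10. Genes named are the 12 highest and 12 lowest called in 4 of 4 mice with at least 20 observed or expected UMIs, up to 4 called per list, and the defining markers, skipping provisional names. The barcodes, gene lists and this rule were chosen with earlier results of these data known. The mice are littermates. In the paired tests p-values rest on how the within-mouse difference varies over 4 libraries, not on the spread between the libraries themselves.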

Additional observations from a re-analysis of the deposited data

Results flagged for a closer look

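Of 110 sets of 4 low-gene values checked for a mouse far from the other 3 (Dixon's criterion, which flags about 1 set in 20 by chance), 4 were flagged, and in each the high value was mouse 4, with 24 low-gene barcodes. The oligodendrocyte list stood at 7.64 UMIs per 10000 in mouse 4 against 1.3 to 2.02 in the other mice. The nuclear respiratory list stood at 436 against 370 to 381. The ribosomal protein list stood at 2261 against 1772 to 1855. Clu stood at 3.06 against 0.147 to 0.556. In mouse 4, 1 UMI is 0.509 UMIs per 10000.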

How the results depend on the processing

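The 178 calls (125 higher, 53 lower) depended on which barcodes and mice entered. Leaving out 1 mouse gave 42 to 210 calls, 34 to 155 higher and 8 to 55 lower, with the fewest without mouse 3. DESeq2 gave 61 (47 and 14), and the fit with no replicate block, that is without the pairing by mouse, gave 32 (25 and 7). With no filter on low counts 121 passed (67 and 54). Limits of fewer than 400 and fewer than 600 genes gave 13 (10 and 3) and 562 (361 and 201). At 400 genes mouse 4 had 1 barcode and mouse 2 had 3, and at 600 genes mice 1 to 4 had 534, 343, 602 and 237. Shares of genes tested are not given for the 600 limit or for no filter on low counts. Taking the lowest UMI totals in place of gene counts gave 98 (62 higher), barcodes with at most 10% mitochondrial UMIs gave 117 (70 higher), and the reference of 500 to under 1000 genes gave 16 (15 and 1). Barcodes in a UMI range that both classes of a mouse hold, an alternative chosen after seeing the data, gave 92 of 1669 tested (70 and 22), 31 of them shared. The mitochondrial difference of 5.70 points became 10.1 under 400 genes, 3.20 against 500 to under 1000 genes and 1.63 in the same UMI range, and ran from 4.95 to 6.18 without each mouse. The Malat1 difference of 24.3 points became 12 against 500 to under 1000 genes. Alternatives on Malat1 and the astroglial share were also added after seeing the data. For 56 named called genes, 539 of 835 alternative values kept the call, 282 kept only the direction and 14 reversed. Reversals under 400 genes were Ndufb2 -0.28, Cox6c -0.15, Uqcr11 -0.14, Son -0.64, Hnrnpm -0.89, Rps26 -0.10, Rps29 -0.32, Rps21 -0.19 and Rpl37a -0.19, with Malat1, not called at first, at -1.66. Meg3 was -0.46 against 500 to under 1000 genes, Malat1 -0.92 at 10% mitochondrial or less, and in the same UMI range Stmn4 was -0.011, Marcks 0.0043, Tubb2b -0.0035, Son -0.66 and Malat1 -0.49. The cause was not tested.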
